A study of Homo sapiens with 5 samples.

Results

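GNRH1 encodes the precursor of gonadotropin-releasing hormone, and 7 further genes encode homeodomain proteins known to bind or act at its promoter and enhancers: OTX2, SIX6, VAX1, POU2F1, MSX1, PKNOX1 and MEIS1. These 8 genes were chosen by their symbols among the 36601 genes listed for days 0 to 10 and the 33538 listed for days 22 to 26, and each symbol led to the same Ensembl gene in both lists. They were followed in 8 single-cell libraries of WA09, a human embryonic stem cell line, as it was taken towards GnRH neurons by dual SMAD inhibition (dSMADi), then FGF8, then the Notch inhibitor DAPT. D0 is the undifferentiated line. D5_dSMADi and D10_dSMADi are cells at 5 and 10 days of dSMADi alone. D5_XAV939 and D10_XAV939 are cells that received dSMADi plus the tankyrase inhibitor XAV939 over the same days. D22, D24 and D26 are later days of the protocol, which did not include XAV939 in these libraries. Values are counts of unique molecular identifiers (UMIs), each standing for 1 captured RNA molecule, scaled to a total of 1000000 UMIs and written as CPM. Cells of D24 and D26 with a GNRH1 level of at least 3000 CPM in the cell itself were also set against all other cells of their library, and are called GNRH1-high.

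GnRH neurons are the small hypothalamic population whose hormone drives the pituitary gonadotropins and thereby puberty and fertility. Their gene is known to be controlled by a compact promoter and distant enhancers rich in homeodomain sites. OTX2 is a head homeobox factor that activates the promoter. SIX6 and VAX1 are anterior forebrain and eye field factors, SIX6 an activator and VAX1 required for GNRH1 in mouse neurons. POU2F1 (OCT1) binds the octamer-like sites of the enhancer. MSX1 represses the promoter. PKNOX1 (PREP1) and MEIS1 are TALE homeodomain proteins that bind with PBX partners. XAV939 stabilizes AXIN and so lowers Wnt/beta-catenin signalling, which sets regional identity along the anterior-posterior axis of the neural plate.

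Each condition was 1 library, so differences have no replicate check and no test was run. Libraries held 58073098 to 130440502 UMIs over the 1009 to 11056 cells kept. D0 to D10 were pooled in 1 tagged run with a median of 24290.5 to 69455 UMIs per cell, and D22 to D26 were 3 separate samples with 7180 to 12179. The labels do not name the runs of these 3. These 2 sets differ in tagging, dissociation (Accutase for the early, papain for the late), pipeline version and gene list. The least UMIs per cell kept were 10000 or 30000 in the early set and 1500 in the late one. The protocol also has a freeze and thaw between them. None of this can be told apart from the time between the sets, so their values stand side by side without a ratio. A single tag led in 100% of the barcodes of each tagged library, and these libraries shared 0 barcodes. Both follow from the split of 1 multiplexed sample by tag, so they are no separate check of identity. The pluripotency markers summed to 3964 CPM at D0 and at most 332.9 in the other libraries, and the neuron markers to 10620 at D24 and 10210 at D26. Mesoderm and endoderm markers (TBXT, SOX17, FOXA2, GATA6) summed to no more than 0.728 CPM in any library. Levels are CPM of the summed UMIs of a library or group of cells with exact Poisson intervals, ratios have exact intervals from the split of UMIs, and shares of cells have Clopper-Pearson intervals, all at 95%. They cover counting error only and take UMIs as independent. Shares of cells are given beside some levels. Where most cells with a UMI of a gene hold only 1, the share follows the level. Expression in fewer cells then cannot be told from a lower level per cell.

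GNRH1 (chr8:25419258-25424654 on GRCh38, minus strand) was close to 0 through day 10 and had the largest ratios of the 8 genes between the late libraries. It stood at 0.672 CPM at D0, 0.853 at D5_dSMADi, 1.03 at D5_XAV939, 0.889 at D10_dSMADi and 0.672 at D10_XAV939, from 39 to 89 UMIs in each library. No cell of these 5 libraries had more than 2 GNRH1 UMIs. D22 had 5.85 CPM, D24 had 1133 and D26 had 3272. On the log2 scale the ratio was 7.60 (7.49 to 7.70) for D24 over D22 and 1.53 (1.52 to 1.54) for D26 over D24. Of the 763 GNRH1 UMIs of D22, 557 (73.0%) came from 6 cells, and 1 cell held 169. The intervals take UMIs as independent and leave out this spread between cells.

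The GNRH1 RNA of the late libraries was held by a minority of cells. GNRH1-high cells numbered 6 of 9523 at D22, 345 of 9107 at D24 (3.79%, 3.41 to 4.20) and 999 of 11056 at D26 (9.04%, 8.51 to 9.59). They carried 97.2% of the GNRH1 UMIs at D24 and 96.9% at D26. Their median was 22250 CPM of GNRH1 at D24 and 24650 at D26, and the highest cell had 135000 and 137300. The limit cuts a continuous range. The lowest cell inside it had 3148 CPM at D24 and 3034 at D26, and the highest cells outside it had 2981 and 2998.

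**Figure D1:**
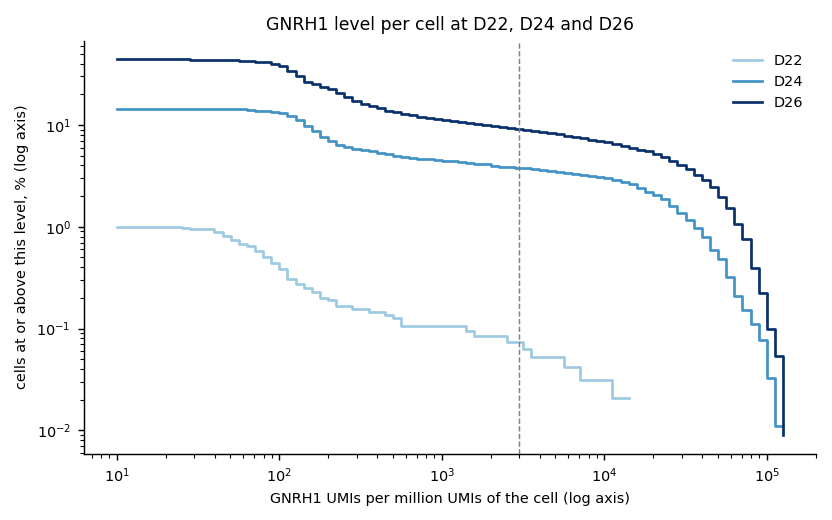
Share of cells (%, log axis) at or above each GNRH1 level (CPM within the cell, log axis) for the 3 late libraries; the dashed line marks 3000 CPM. Cells at or above this line make up 0.063% of D22, 3.79% of D24 and 9.04% of D26.

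Many other cells held a few GNRH1 UMIs. A GNRH1 UMI was found in 14.4% of all cells at D24 and 43.98% at D26. In Glut-like cells below the limit, named from TBR1, PPP1R17 and other glutamatergic markers, the share was 10.2% at D24 (median depth 7111.5 UMIs) and 35.7% at D26 (8347), and after thinning to 1500 UMIs per cell 2.62% and 9.57%. Free RNA was not measured here, and the source of these UMIs was not tested. The GNRH1 level of these cells was 21.7 CPM at D24 and 75.9 at D26. With the GNRH1-high cells of the class included it was 46.4 and 127.

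SIX6 (chr14:60509146-60512850, plus strand) was highest at day 5, was higher with XAV939 on both days and reached no more than 5 UMIs in a late library. Its level was 0.290 CPM at D0 (22 UMIs), 3.11 at D5_dSMADi (248), 17.9 at D5_XAV939 (1554), 0.292 at D10_dSMADi (23) and 3.29 at D10_XAV939 (191). D5_XAV939 stood above every other library, and both XAV939 libraries stood above the dSMADi library of their day. With XAV939 the log2 ratio was 2.53 (2.33 to 2.72) at day 5 and 3.49 (2.87 to 4.19) at day 10. From day 5 to day 10 it was lower in both arms, by a log2 ratio of -3.41 (-4.10 to -2.80) under dSMADi and -2.45 (-2.67 to -2.23) with XAV939. A SIX6 UMI was found in 31.0% of D5_XAV939 cells against 7.48% of D5_dSMADi cells, and in 13.6% against 2.40% after thinning to 10000 UMIs. The share in D0, which was deeper, was 1.98% and 0.496%. Of the late libraries D22 had 5 UMIs, D24 had 1 and D26 had 0. The exact interval of 0 among 99456737 UMIs ends at 0.0371 CPM, and the limit of 3 counts is 0.0302.

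SIX6 lies wholly within C14orf39, which is on the opposite strand, and the sources used here do not state whether counting used the strand. C14orf39 was at 15.4 CPM at D5_dSMADi and 17.0 at D5_XAV939, and at 11.3 at D10_dSMADi and 5.22 at D10_XAV939. The part of C14orf39 reads in the SIX6 counts was not tested.

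Of the 8 genes, SIX6 had the widest contrast between the 2 arms at day 5 and VAX1 (chr10:117128521-117138301, minus strand) at day 10. Its level was 0.171 CPM at D0 (13 UMIs), 0.188 at D5_dSMADi (15), 0.704 at D5_XAV939 (61), 0.0635 at D10_dSMADi (5) and 16.6 at D10_XAV939 (963). The D10_XAV939 library stood far above the other 4, which were all below 1 CPM. The log2 ratio with XAV939 was 1.90 (1.07 to 2.82) at day 5 and 8.03 (6.80 to 9.66) at day 10. The size at day 10 rests on 5 UMIs in D10_dSMADi. The 362 barcodes of that library left out by the filters held another 13, and the log2 ratio over all barcodes was 6.50. A VAX1 UMI was found in 30.7% of D10_XAV939 cells and 0.207% of D10_dSMADi cells, and after thinning in 13.9% and 0%. At the late days VAX1 was at 14.3 CPM at D22, 3.69 at D24 and 4.85 at D26, from 1872, 259 and 482 UMIs. D24 was lower than D22 by a log2 ratio of -1.96 (-2.15 to -1.77).

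Of the XAV939 libraries, SIX6 was higher at day 5 and VAX1 at day 10. In D10_XAV939, 49 of the 116 cells with a SIX6 UMI also had a VAX1 UMI (42.2%), against 30.1% of the cells without one. After thinning to equal depth these shares were 15.0% and 13.9%.

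The 250 bases before the transcription start of each regulator were available from the RefSeq promoter table (GRCh38.p14) for all 7 regulators, in 10 windows. SIX6 and VAX1 are shown because they differed most between the arms. They were searched on both strands for CTTTGA and CTTTGT (TCF/LEF cores, the sites of the Wnt effector), TAATTA (homeodomain), TAATCC (OTX-type), TGACAG (MEIS/PKNOX-type) and ATGCAAAT (octamer). Capitals mark matches. The SIX6 window, at chr14:60508896-60509145 on the plus strand, held 1 CTTTGA and 1 TGACAG, and the VAX1 window, at chr10:117138271-117138520 on the minus strand, held none of the 6.
SIX6: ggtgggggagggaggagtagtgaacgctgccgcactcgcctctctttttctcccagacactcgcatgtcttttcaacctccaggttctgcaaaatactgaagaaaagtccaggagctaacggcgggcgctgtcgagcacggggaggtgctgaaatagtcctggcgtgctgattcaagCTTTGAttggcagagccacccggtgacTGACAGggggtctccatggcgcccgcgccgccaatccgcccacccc
VAX1: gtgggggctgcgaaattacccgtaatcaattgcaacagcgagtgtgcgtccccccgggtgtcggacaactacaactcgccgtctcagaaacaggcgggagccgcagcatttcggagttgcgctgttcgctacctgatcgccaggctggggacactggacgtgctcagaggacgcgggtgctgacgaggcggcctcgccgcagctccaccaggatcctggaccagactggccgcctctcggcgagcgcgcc

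CTTTGA occurred in 11.2% of all 35116 windows of this length, CTTTGT in 13.7%, TAATTA in 4.35%, TAATCC in 5.62%, TGACAG in 13.0% and ATGCAAAT in 1.63%. Among the other regulators, only 1 of the 3 POU2F1 windows held a match, with 1 CTTTGA, 1 CTTTGT and 1 ATGCAAAT. A match is a description of the letters and not a binding site.

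OTX2 (chr14:56799905-56816693, minus strand) was highest at D5_dSMADi and lowest at D24 and D26. Its level was 40.6 CPM at D0, 151 at D5_dSMADi, 80.9 at D5_XAV939, 100.3 at D10_dSMADi and 126 at D10_XAV939. The dSMADi arm was highest at day 5 and the XAV939 arm at day 10. With XAV939 the log2 ratio was -0.90 (-0.94 to -0.85) at day 5 and 0.33 (0.28 to 0.37) at day 10. An OTX2 UMI was found in 84.5% to 97.1% of cells in each library from day 5 to day 10. The level was 84.3 CPM at D22, 20.6 at D24 and 15.9 at D26, with log2 ratios of -2.03 (-2.11 to -1.95) for D24 over D22 and -0.38 (-0.48 to -0.27) for D26 over D24. Its level at D26 was thus the lowest of its 8 libraries while that of GNRH1 was the highest. OTX2 overlaps OTX2-AS1 on the opposite strand, which was at 3.05 CPM at D22 and at most 0.203 in the other libraries, and the part of its reads in the OTX2 counts was not tested.

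MSX1 (chr4:4859665-4863936, plus strand), the repressor of the group, stayed low throughout. Its level lay between 0.437 CPM at D22 and 1.91 at D10_XAV939, from 38 to 111 UMIs in each library. With XAV939 the log2 ratio was -0.66 (-1.16 to -0.16) at day 5 and 1.08 (0.64 to 1.54) at day 10. D24 was higher than D22 by a log2 ratio of 1.04 (0.50 to 1.58), from 63 and 57 UMIs. The highest library, D10_XAV939, had an MSX1 UMI in 4.43% of cells, against 3.57% in the deeper D0. Neural crest markers (SOX10, FOXD3, TFAP2A, TFAP2B and SNAI2) summed to 2.20 CPM in D5_dSMADi, 1.25 in D5_XAV939, 2.20 in D10_dSMADi and 12.2 in D10_XAV939. More than 3 UMIs were found for all 5 in D10_XAV939 and for 4 of 5 in the other 3. The sum, like MSX1, was thus lower with XAV939 at day 5 and higher at day 10. It was 38.3 CPM at D0 and 11.2 at D22, where MSX1 was low. Their part in the MSX1 level was not tested.

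POU2F1 (chr1:167220876-167427345, plus strand) was the steadiest of the regulators over the early days. It stood at 72.8 CPM at D0, 73.7 at D5_dSMADi, 79.3 at D5_XAV939, 71.5 at D10_dSMADi and 74.0 at D10_XAV939. The ratios among the 4 libraries of days 5 and 10, by day and by XAV939, were between -0.10 and 0.11 on the log2 scale, and D5_dSMADi over D0 was 0.02 (-0.04 to 0.07). The late levels were 41.9 CPM at D22, 47.4 at D24 and 90.7 at D26. D26 over D24 was 0.94 (0.88 to 0.99), where the median of all genes tested was 0.31. Its 3′ end overlaps CD247 on the opposite strand, which was at no more than 1.20 CPM in any library. A non-coding gene, ENSG00000272033, overlaps POU2F1 on the same strand and is in the gene list of the early libraries only. Its part in the POU2F1 counts was not tested.

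The TALE genes differed from each other. MEIS1 (chr2:66433452-66573869, plus strand) was near 0 at D0 with 0.25 CPM and stood at 2.32 at D5_dSMADi, 1.65 at D5_XAV939, 13.4 at D10_dSMADi and 10.1 at D10_XAV939. It was higher at day 10 than at day 5 in both arms, by a log2 ratio of 2.52 (2.30 to 2.76) under dSMADi and 2.62 (2.35 to 2.89) with XAV939. It was lower with XAV939 on both days, at -0.49 (-0.82 to -0.17) and -0.40 (-0.55 to -0.26). At the late days it was at 14.5 CPM at D22, 14.1 at D24 and 20.5 at D26. MEIS1 overlaps MEIS1-AS2 on the opposite strand, which was at 3.01 to 3.96 CPM in the late libraries and at most 0.406 in the early ones, and MEIS1-AS3, which had at most 1 UMI in a library. The part of their reads in the MEIS1 counts was not tested. PKNOX1 (chr21:42974510-43033931, plus strand) was detected everywhere, between 13.2 CPM at D24 and 26.8 at D0. It was higher with XAV939 by a log2 ratio of 0.30 (0.18 to 0.42) at day 5 and 0.37 (0.25 to 0.49) at day 10, and D26 over D24 was 0.77 (0.66 to 0.89).

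**Figure D2:**
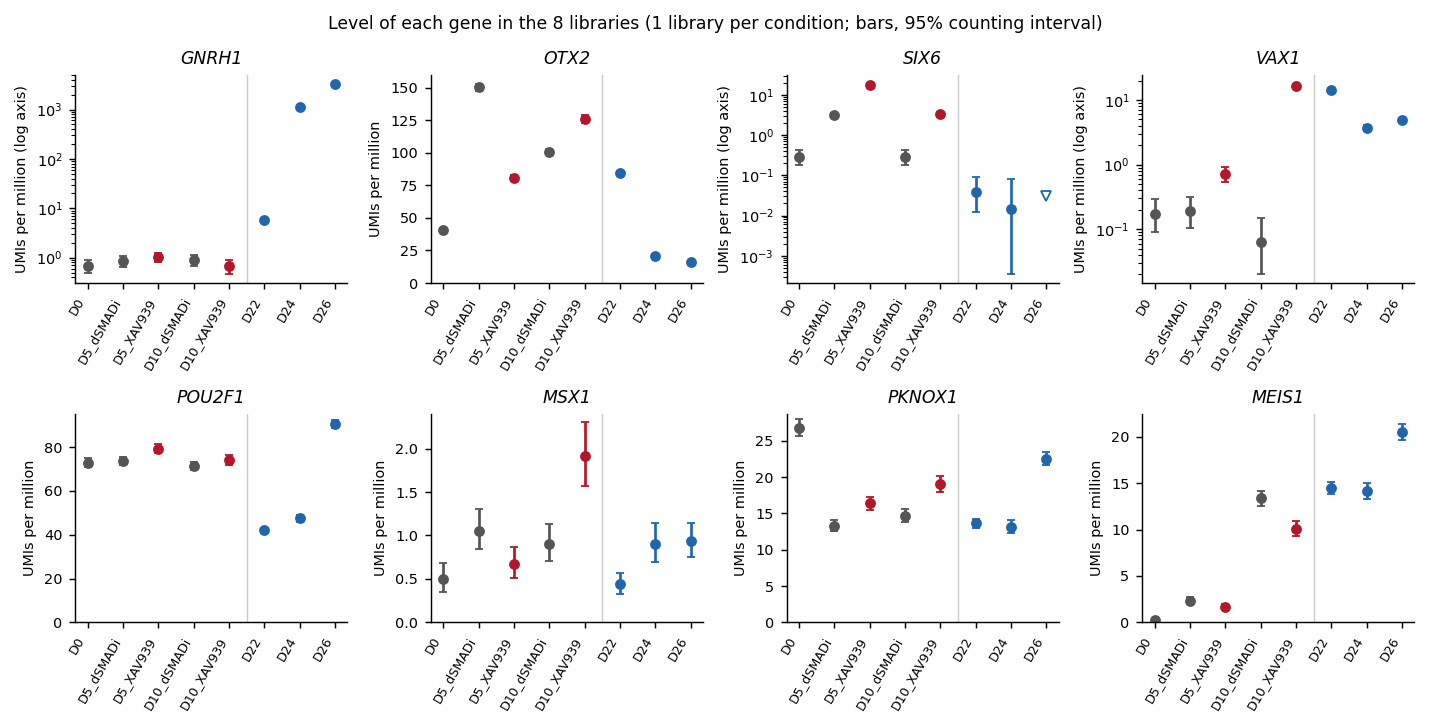
Level of each gene (CPM, linear axis from 0 for OTX2, POU2F1, MSX1, PKNOX1 and MEIS1, log axis for GNRH1, SIX6 and VAX1) in the 8 libraries, without XAV939 in grey, with XAV939 in red and late days in blue. Bars are 95% counting intervals, the open triangle is the limit of 3 UMIs for SIX6 at D26 and the grey line parts the 2 sets of libraries. OTX2 is at its lowest at D26 (15.9 CPM) where GNRH1 is at its highest (3272 CPM).

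The count of genes past 2-fold was read against all genes with more than 50 UMIs in both libraries together. For D5_dSMADi over D0, 5 of 7 genes tested passed (OTX2, SIX6, MSX1 and MEIS1 higher, PKNOX1 lower) against 34.3% of all genes. PKNOX1, at -1.01, lies at the limit and was at -0.90 with TMM scaling, which leaves 4 of 7. For day 10 over day 5, 2 of 7 passed under dSMADi against 13.0%, and 4 of 8 with XAV939 against 11.2%. For XAV939 over dSMADi, 2 of 8 passed at day 5 against 3.41% (SIX6 and VAX1 higher), and 3 of 8 at day 10 against 7.17% (SIX6, VAX1 and MSX1 higher). At the late days 4 of 7 passed for D24 over D22 against 29.9% (GNRH1 and MSX1 higher, OTX2 and VAX1 lower), and 1 of 7 for D26 over D24 against 14.7%, which was GNRH1. VAX1 was under the count minimum in the first 2 comparisons and SIX6 in the last 2.

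**Figure D3:**
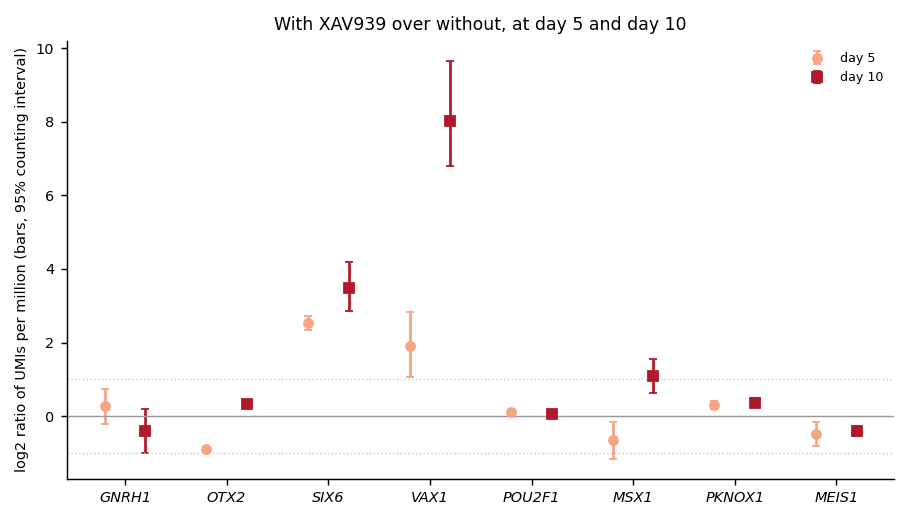
log2 ratio of CPM with XAV939 over without, at day 5 (circles) and day 10 (squares), for each of the 8 genes. Bars are 95% counting intervals and dotted lines mark 2-fold; VAX1 at day 10 (8.03) and SIX6 at both days (2.53 and 3.49) lie farthest above 0, and OTX2 lies below 0 at day 5 (-0.90) and above it at day 10 (0.33).

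Within the early libraries the regulators were spread over most clusters of their library. In the 2 clusters that hold nearly all D5_XAV939 cells, SIX6 was at 18.4 and 17.6 CPM in the D5_XAV939 cells. At day 10 with XAV939, 61 cells formed a Neuron-like cluster led by STMN2, NEFM and SST, apart from 2106 neural progenitor-like cells. OTX2 was at 35.1 CPM in the Neuron-like cells (52 UMIs) and 128 in the progenitor-like cells, VAX1 at 8.76 (13 UMIs) and 16.8, and SIX6 at 6.74 (10 UMIs) and 3.18. GNRH1 had 0 UMIs in these Neuron-like cells.

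In the late libraries OTX2 and VAX1 were higher in the D22 progenitors than in the other named classes of D22. OTX2 was at 109 CPM in PNP-like (proliferating progenitor) cells, 88.3 in NNP-like (non-proliferating progenitor) cells, 25.9 in Glut-like cells and 14.4 in IRX-like cells of D22, and 45.9 in 35 GnRH-GABA-like cells (19 UMIs). VAX1 was at 16.2, 16.4, 4.44, 2.32 and 4.83 CPM in the same classes, the last from 2 UMIs. Both were also high in an unnamed D22 cluster led by PLS3, ATP2B4 and C1orf61, at 96.4 and 16.2 CPM in its D22 cells. GnRH-GABA-like cells, the DLX clusters, were named from GAD2, SLC32A1, DLX1, DLX2, DLX5 and DLX6-AS1 and hold most GNRH1-high cells. In them OTX2 was at 17.8 CPM at D24 and 13.4 at D26, against 21.6 and 16.2 in Glut-like cells. VAX1 there was at 1.94 CPM at D24 (9 UMIs) and 4.46 at D26 (79), against 3.96 and 4.95 in Glut-like cells. OTX2 was higher in an unnamed cluster led by CALB1, CA10 and CADM2, at 52.6 CPM (73 UMIs) in its 154 cells of D26, of which 19 were GNRH1-high, and at 50.1 (8 UMIs) in its 23 cells of D24. SIX6 had 0 UMIs in GnRH-GABA-like and Glut-like cells at every late day. The values of D24 and D26 come from other libraries than the progenitors.

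The level of the regulators in GNRH1-high cells was then compared with all other cells of the library, within D24 and within D26. SIX6 had 0 UMIs in the 345 GNRH1-high cells of D24 and in the 999 of D26. The exact intervals allow a share of cells with a SIX6 UMI of up to 1.06% and 0.369%. This limits detection at this depth, not expression. VAX1 was at 0.327 CPM in GNRH1-high and 3.85 in other cells of D24, from 1 and 258 UMIs, and at 1.64 and 5.22 CPM at D26, from 17 and 465. The log2 ratio was -3.56 (-8.87 to -1.07) at D24 and -1.67 (-2.47 to -0.98) at D26. VAX1 was the 1 regulator past 2-fold at either day, of 6 tested, against 15.5% of all genes at D24 and 9.51% at D26. A VAX1 UMI was found in 1 of 345 GNRH1-high cells (0.290%, 0.0073 to 1.60) and 2.79% of other cells at D24. At D26 it was in 1.60% (0.918 to 2.59) and 4.06% (3.68 to 4.46). With cells thinned to 1500 UMIs the D26 ratio was -0.81 in the 1 draw made, which left 5 UMIs in GNRH1-high cells. The expected value over draws was -1.69 (2.44 UMIs there). It has the ratio of the mean of CPM over cells, so it is no separate check of depth.

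No regulator was past 2-fold higher in the GNRH1-high cells at either day. OTX2 was at 22.6 CPM in GNRH1-high and 20.5 in other cells of D24, and at 14.2 and 16.1 at D26, with intervals of the log2 ratio of -0.23 to 0.49 and -0.44 to 0.06. PKNOX1 was at 18.3 and 13.0 CPM at D24 and at 23.98 and 22.4 at D26, with log2 ratios of 0.50 (0.08 to 0.89) and 0.10 (-0.10 to 0.29). MEIS1 was at 11.4 and 14.3 CPM at D24 and at 11.9 and 21.5 at D26, with log2 ratios of -0.32 (-0.85 to 0.17) and -0.85 (-1.12 to -0.59). POU2F1 was lower at both days, at 31.7 and 48.1 CPM at D24 and 73.3 and 92.7 at D26, with log2 ratios of -0.60 (-0.91 to -0.31) and -0.34 (-0.45 to -0.23). MSX1 rested on 4 UMIs in GNRH1-high cells at D24 and 7 at D26, and its intervals spanned 0. Median depth was 8247 UMIs in GNRH1-high and 7149.5 in other cells at D24, and 9729 and 8401 at D26. Of the GNRH1-high cells 9.86% at D24 and 13.7% at D26 were called doublets, against 4.81% and 5.85% of the others, and their part in these ratios was measured by leaving them out. MEIS1 at D26 then reached -1.01 and VAX1 -2.04.

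Single cells rarely showed several regulators at this depth. Of the 345 GNRH1-high cells at D24, 190 had no UMI of any of the 7 regulators, 100 had 1 of them, 48 had 2 and 7 had 3. Of the 999 at D26, 345 had none, 427 had 1, 183 had 2, 38 had 3, 5 had 4 and 1 had 5. POU2F1 was the most often detected, in 21.7% of GNRH1-high cells at D24 and 46.8% at D26. In other cells it was found in 28.7% and 50.5%. The number of regulators per cell was not counted in the other cells.

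Most GNRH1-high cells lay in the DLX clusters, 328 of 345 at D24 and 928 of 999 at D26, which lets GNRH1-high cells be compared with other cells of the same clusters, 212 and 825. These other cells were not free of GNRH1. It stood at 438.9 CPM in them at D24 and 487.2 at D26, with a UMI in 44.8% and 67.9% of the cells. The comparison is thus of high with lower GNRH1. The clusters were made without the 8 genes. VAX1 was at 1.14 CPM in GNRH1-high and 8.46 in other DLX-cluster cells of D26, from 11 and 68 UMIs, a log2 ratio of -2.90 (-3.97 to -1.97). Its UMIs were in 1.08% (0.518 to 1.97) and 4.73% (3.38 to 6.41) of these cells. The 11 UMIs lay in 10 cells and the 68 in 39 cells. In Glut-like cells of D26 below the GNRH1 limit VAX1 was at 4.95 CPM, with 376 UMIs in 352 cells. The interval of the ratio takes UMIs as independent and leaves out this uneven spread between cells. At D24 it had 0 UMIs in the GNRH1-high and 9 in the other DLX-cluster cells, which is under the count minimum. The interval of its log2 ratio ends at -1.68. OTX2 was at 23.3 CPM in GNRH1-high and 9.03 in other DLX-cluster cells at D24, from 67 and 16 UMIs, a log2 ratio of 1.37 (0.56 to 2.25), and at 13.8 and 12.8 at D26 (0.11, -0.27 to 0.50). MEIS1 at D26 stood at 11.3 against 16.8 CPM, with a log2 ratio of -0.58 (-0.96 to -0.20). For POU2F1 the log2 ratio was -0.03 (-0.53 to 0.48) at D24 and -0.02 (-0.19 to 0.14) at D26. For PKNOX1 it was 0.22 (-0.45 to 0.93) and -0.05 (-0.32 to 0.23), so all 4 intervals span 0.

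Within the DLX clusters 1 of 4 regulators tested passed 2-fold at D24 (OTX2, higher) against 1.09% of all genes, and 1 of 5 at D26 (VAX1, lower) against 0.88%. One of the 2 DLX clusters, with 262 of its 263 cells from D26, had 92.0% of its cells called doublets and a median of 17462 UMIs. Without doublet calls VAX1 at D26 was at -3.21 and OTX2 at D24 at 1.64.

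**Figure D4:**
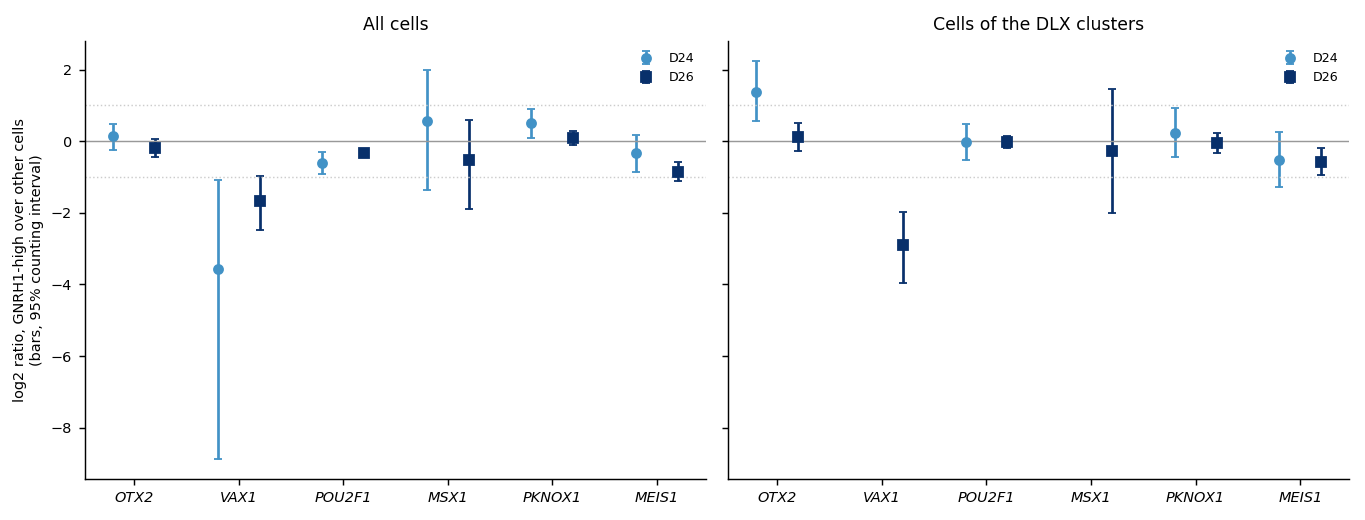
log2 ratio of CPM in GNRH1-high over other cells at D24 (circles) and D26 (squares), over all cells (left) and within the DLX clusters (right). Bars are 95% counting intervals, dotted lines mark 2-fold and pairs under 10 UMIs or with 0 in a group are not drawn; VAX1 lies below the lower dotted line in all 3 of its points and OTX2 within the DLX clusters of D24 above the upper one (1.37).

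Cells were also binned by their GNRH1 level: 0, above 0 to under 300, 300 to under 3000, 3000 to under 30000 and at least 30000 CPM. Over these bins VAX1 at D26 was at 5.34, 5.13, 4.68, 2.29 and 0.703 CPM, the last from 3 UMIs in 422 cells. At D24 it was at 4.00, 2.88, 1.52, 0.472 and 0 CPM. VAX1 was lowest in the top bin at both days, and only at D26 do the intervals of the bottom bin (4.73 to 6.004) and the top bin (0.145 to 2.05) part.

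MEIS1 at D26 was at 21.6, 22.2, 18.3, 13.6 and 9.60 CPM, and POU2F1 at 93.3, 93.9, 83.2, 80.6 and 62.8. For both, the interval of the top bin lay below that of the bottom bin. OTX2 at D26 was at 16.0, 16.2, 16.2, 12.6 and 16.4 CPM and PKNOX1 at 22.4, 21.7, 25.2, 23.1 and 25.3, with overlapping intervals of the bottom and the top bin. The share of cells in the DLX clusters was 4.28% in the bottom bin and 99.3% in the top bin of D26, so the cell class changes with the bin. Its part in these levels was measured only by the comparison within the DLX clusters.

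**Figure D5:**
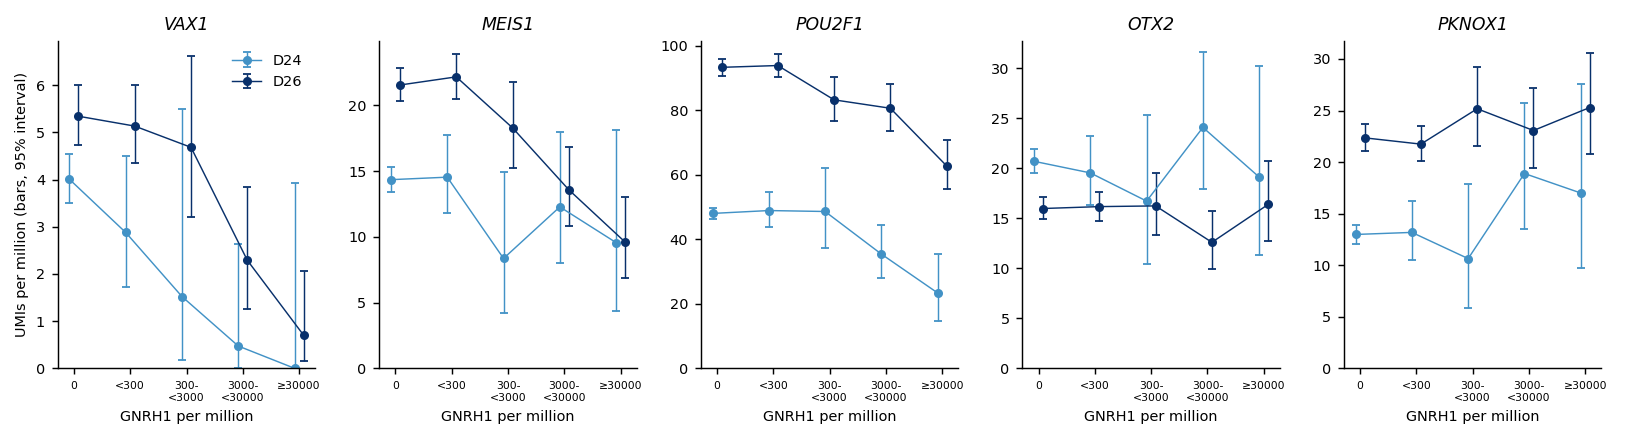
Level of VAX1, MEIS1, POU2F1, OTX2 and PKNOX1 (CPM, axes from 0) in cells binned by their GNRH1 CPM, at D24 (light) and D26 (dark), with 95% counting intervals. At D26 VAX1 goes from 5.34 to 0.703 CPM, MEIS1 from 21.6 to 9.60 and POU2F1 from 93.3 to 62.8 between the first and the last bin, while PKNOX1 is at 22.4 and 25.3.

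Paralogs of the regulators and further factors described at the GNRH1 promoter or enhancer were followed as 2 lists of 10 and 19 genes. In GNRH1-high cells of D26, 1 of 6 paralogs tested was past 2-fold higher and 1 lower, with a median log2 ratio of 0.01, and 6 of 16 partners were higher and 1 lower, with a median of 0.79. Of all genes 9.51% were past 2-fold, with a median of -0.11. At D24 the paralogs gave 1 higher and 3 lower with a median of -0.29, and the partners 5 higher and 3 lower with a median of 0.21, beside 15.5% and -0.16 for all genes. Within the DLX clusters of D26, 0 of 13 partners were past 2-fold higher and 1 lower, with a median of -0.09, and 0 of 5 paralogs passed in either direction. At D24, 0 of 11 partners were higher and 1 lower, and 0 of 4 paralogs passed. The 3 partners with the largest ratios were DLX1, DLX5 and DLX2, homeobox factors of GABAergic neurons and markers of the clusters. DLX1 was at 193 CPM in GNRH1-high and 24.2 in other cells of D26, a log2 ratio of 3.00 (2.91 to 3.09), and at 4.97 (4.75 to 5.2) at D24. DLX5 was at 2.96 and 4.63 and DLX2 at 2.91 and 4.48. Within the DLX clusters of D26 the log2 ratios of DLX1, DLX5 and DLX2 were -0.28, -0.34 and -0.32.

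The 3 lowest at D26 were EGR1, an immediate early factor, at -1.91 (-3.37 to -0.76) at D26 from 6 UMIs and -0.30 (-3.38 to 1.62) at D24, POU2F2 (OCT2) at -1.02 and -1.24, and PKNOX2 at -0.96 and -1.06. The paralog past 2-fold higher was SIX3, named here after its values were seen. SIX3 was at 519 CPM in GNRH1-high and 144 in other cells of D26, a log2 ratio of 1.85 (1.80 to 1.90), and at 445 and 85.2 at D24, 2.38 (2.30 to 2.47). Within the DLX clusters its log2 ratio was 0.02 (-0.04 to 0.08) at D26 and -0.17 (-0.29 to -0.05) at D24. SIX3 was thus abundant in the DLX clusters, where SIX6 had 0 UMIs, whether or not their cells were GNRH1-high.

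The same lists were read for XAV939. At day 5, 1 of 8 paralogs tested was past 2-fold higher and 2 lower, and 1 of 13 partners was higher, against 3.41% of all genes. At day 10, 2 of 7 paralogs were higher and 1 lower, and 1 of 14 partners was higher, against 7.17%. These genes were named after their values were seen. VAX2, the paralog of VAX1, was higher at both days, at 1.43 (0.52 to 2.42) and 2.63 (2.06 to 3.24). SIX3 was at 0.85 (0.80 to 0.91) at day 5 and 1.88 (1.81 to 1.95) at day 10. OTX1, the paralog of OTX2, was lower at -1.20 (-1.30 to -1.09) and -2.10 (-2.33 to -1.88), and MSX2 was lower at day 5 from 3 and 83 UMIs, at -4.91 (-7.22 to -3.31). The partner was NFIA at both days, at 1.78 and 3.65.

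The genes most like each member over the 8 libraries were ranked by Pearson r of log2(CPM + 1) among 8385 genes with at least 20 CPM in some library. These libraries differ in day, depth and handling, so r describes the shape of a profile only. GNRH1 was most like NRXN2 (r = 0.997), PSD2 (0.996), NDST3 (0.994), MYT1L (0.993) and RUNDC3B (0.993). All 5 were highest at D26, with MYT1L at 0.25 CPM at D0, 2.51 at D22, 24.9 at D24 and 65.8 at D26. OTX2 was most like IGFBP5 (0.977) and CCDC28A (0.972), and SIX6 most like PAMR1 (0.923) and LPAR1 (0.919), both highest at D5_XAV939. VAX1 was most like LBR (0.942) and DHX8 (0.937), POU2F1 like TENT4B (0.989) and OPA1 (0.971), MSX1 like NMT2 (0.890) and SH3RF1 (0.847), PKNOX1 like UGGT1 (0.958) and SUGT1 (0.955), and MEIS1 like LYRM2 (0.985) and ANAPC13 (0.983). A high r does not mean a like range. LBR lay between 86.2 and 169 CPM and DHX8 between 25.4 and 35.3, where VAX1 lay between 0.0635 and 16.6. Against GNRH1 itself the 7 regulators ranged from -0.88 for OTX2 to 0.59 for MEIS1.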

How the data were processed

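The authors deposited UMI counts per gene and barcode, made with Cell Ranger on GRCh38, version 3.1.0 for D22 to D26 and 6.1.2 for the tagged run as given in the file headers, with no normalization. Cells were kept by the study's limits on UMIs, genes, complexity and mitochondrial share. They leave 2419 of 2480 barcodes of D5_dSMADi, 2815 of 2919 of D5_XAV939, 2416 of 2778 of D10_dSMADi and 2168 of 2638 of D10_XAV939. The counts of cells that the study gives for these 4 libraries equal the deposited barcodes, so the cells used here are fewer than the study's. The complexity limit would have left almost no cell of D0 and was dropped there after the counts were seen. Tag features were left out of totals. Doublets were scored by simulation and called at 0.25, but stayed in. Cells were clustered with Leiden (scanpy 1.11.5, resolution 0.5 for D22 to D26 and 0.3 for D0 to D10) on variable genes without the members and the listed factors. Clusters were named from marker lists, and the margin for a name was set after values were seen, so names can differ from the study's. Called means a ratio of at least 2-fold. With 1 library per condition no p-value was computed, and no design with replicates exists. The alternatives included TMM factors (edgeR 4.0.16). The ratio, interval and thinning code was tested on simulated data.

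The members, lists and rules were chosen with earlier results of these data known. Named genes are all members, the 3 listed factors with the largest ratio in each direction in GNRH1-high cells of D26, and the most alike genes by Pearson r, 5 for GNRH1 and 2 for each regulator. Positions are from GENCODE 44, whose release differs from the authors' annotation. The depth of 58073098 to 130440502 UMIs sets the intervals.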

Additional observations from a re-analysis of the deposited data

Results flagged for a closer look

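OTX2 and MSX1 were looked at again because their difference with XAV939 pointed in opposite directions on the 2 days. For OTX2 the log2 ratio was -0.90 at day 5 and 0.33 at day 10. For MSX1 it was -0.66 at day 5 and 1.08 at day 10, from 58 to 111 UMIs in each library. The study reports higher OTX2 in its dSMADi samples and, by RT-qPCR, lower OTX2 with Wnt inhibition. For OTX2 that is the direction found here at day 5 and not at day 10. Each condition is 1 library, so the difference between the days was not tested.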

How the results depend on the processing

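No paired analysis was possible because each condition is 1 library, and for the same reason none could be left out. Of 391 log2 ratios of members under an alternative, 359 stayed within the counting interval of the reported value, 32 moved outside it, 9 moved by over 1.5 times and 11 changed sign, none of them for a value reported as past 2-fold. Of 192 levels, 174 stayed within their interval. With 1.5-fold in place of 2-fold the count of members was 4 for XAV939 at day 5, 3 for D26 over D24, and 2 for GNRH1-high cells at each of D24 and D26, beside 11.8%, 39.5%, 28.7% and 19.5% of all genes, and at D26 the paralogs numbered 4 and the partners 12. With a GNRH1 limit of 10000 CPM 2 regulators passed 2-fold at D24 and 2 at D26, and without doublet calls 2 at D26. In 1 draw thinned to 1500 UMIs 3 passed at D24. Past 2-fold were OTX2 at -1.16, MSX1 at 1.08 from 1 and 12 UMIs, and VAX1 with 0 UMIs against 53. Among the log2 ratios that moved outside their interval were -1.16 for OTX2, 0.01 for POU2F1 and -0.92 for MEIS1 at D24. At D26 they were -0.83 for OTX2, -0.81 for VAX1 and -0.55 for MEIS1. The expected value over all draws, chosen after seeing the data, gave 0.12, -0.58, -0.38, -0.27, -1.69 and -0.98 in the same order. It was computed without further draws and has the ratio of the mean of CPM over cells, so it is no separate check of depth. The 1 draw left few UMIs. VAX1 at D24 was -2.56 with no filter on cells and -4.62 as a mean of CPM over cells. PKNOX1 for D5_dSMADi over D0 lost its 2-fold call under TMM scaling (-0.90) and under the other filters and without doublet calls (-0.99), and MSX1 lost its call as a mean of CPM over cells (0.97). TMM scaling subtracts a log2 shift of 0.24 for D10_dSMADi over D5_dSMADi, 0.18 for D10_XAV939 over D5_XAV939, -0.11 for D5_dSMADi over D0 and 0.25 for D26 over D24, and no more than 0.05 in size elsewhere. It turned the sign of 4 small ratios: GNRH1 and PKNOX1 for D10_dSMADi over D5_dSMADi, MEIS1 for D24 over D22 and MSX1 for D26 over D24. The cause of the changes was not tested. SIX6 in the late libraries and VAX1 in D10_dSMADi and GNRH1-high cells rest on 17 UMIs or fewer, so the size of their ratios is loose.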
